A study of Mus musculus with 15 samples.

Results

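The genes described here are 40 mouse genes known as markers of cellular senescence or as parts of its secretory programme, out of 54281 genes in the deposited table of liver expression. They were chosen by symbol: the inhibitors of cyclin-dependent kinases Cdkn2a, Cdkn2b and Cdkn2c, Trp53, Glb1 and Lmnb1, and 34 genes of secreted factors, adhesion proteins, proteases, protease inhibitors and receptors. The rule uses no measured value, but the list was drawn up with earlier results of these data known. Of the 40 genes, 39 were detected in at least 1 library, 21 were detected in all 15, and 23 were abundant enough to be tested.

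The livers came from 15 male C57BL6J mice aged 9.5 months, with 1 library per animal, in 4 groups. Mice of the chow saline group (n = 3) and the chow MCOPPB group (n = 5) had vehicle in place of the carcinogen and ate chow throughout. Mice of the DEN/HFD saline group (n = 4) and of the DEN/HFD MCOPPB group (n = 3) received 25 mg/kg of diethylnitrosamine (DEN), a liver carcinogen, as pups and then a lard-based high fat diet (HFD) for 32 weeks. DEN and the diet were always given together, so their parts cannot be told apart. MCOPPB binds the opioid receptor for nociceptin/orphanin FQ, and the series title names it as a senolytic, an agent that kills senescent cells. It was injected intraperitoneally at 5 mg/kg. All mice had 3 cycles of 5 daily injections and 2 days of washout, 21 days in all, and control mice received saline in the same schedule. The design thus compares MCOPPB with saline in each of both conditions, and DEN/HFD with chow in each treatment.

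Senescent cells have left the cell cycle for good. The arrest is held by the p53 protein and by inhibitors of cyclin-dependent kinases such as p16, which keep the RB protein active. Such cells enlarge their lysosomes, lose lamin B1 from the nuclear envelope, and secrete cytokines, chemokines, proteases and growth factors, a mixture called the senescence-associated secretory phenotype (SASP) that is driven largely by the transcription factors NF-kB and C/EBP beta. In liver, senescence has been described in hepatocytes, stellate cells, endothelial cells and macrophages, and most SASP factors are also made by immune cells that are not senescent.

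Promoter sequences show the regulatory side of the list. RefSeq promoters (build GRCm38.p6) were found for 35 of the 40 genes, and Lmnb1, Ccl2, Ccl5, Mmp9 and Plau had no entry. Within 250 bases before the transcription start, on either strand, the AP-1 motif TGANTCA occurred in 9 of the 35 genes (25.7%), namely Glb1, Il6, Il1a, Cxcl10, Mmp3, Mmp12, Mmp13, Igfbp2 and Plaur, and in 7.82% of all 27025 genes with a promoter. The E-box CACGTG occurred in 3 of the 35 (8.57%), namely Glb1, Igfbp2 and Gdf15, and in 6.86% of all genes. A gene with several listed promoters was counted once if any of them matched, and a match is a description of letters, not a sign of binding. The 3 windows below are shown because they belong to the most abundant gene of the list and to 2 inflammatory genes, one measurable and one nearly silent. Capitals mark every match to the AP-1 motif and the E-box.
Igfbp2, chr1:72824230-72824479, plus strand: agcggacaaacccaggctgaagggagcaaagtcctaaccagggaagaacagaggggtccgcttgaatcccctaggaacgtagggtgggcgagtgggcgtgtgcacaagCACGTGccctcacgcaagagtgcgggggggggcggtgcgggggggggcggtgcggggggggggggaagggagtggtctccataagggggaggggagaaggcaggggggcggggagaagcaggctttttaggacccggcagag
Cxcl10, chr5:92348890-92349139, minus strand: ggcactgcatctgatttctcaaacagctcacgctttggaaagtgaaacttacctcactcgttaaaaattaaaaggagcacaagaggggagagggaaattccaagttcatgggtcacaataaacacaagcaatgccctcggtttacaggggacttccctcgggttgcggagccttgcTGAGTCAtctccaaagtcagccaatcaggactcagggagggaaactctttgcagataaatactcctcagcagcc
Il6, chr5:30012864-30013113, plus strand: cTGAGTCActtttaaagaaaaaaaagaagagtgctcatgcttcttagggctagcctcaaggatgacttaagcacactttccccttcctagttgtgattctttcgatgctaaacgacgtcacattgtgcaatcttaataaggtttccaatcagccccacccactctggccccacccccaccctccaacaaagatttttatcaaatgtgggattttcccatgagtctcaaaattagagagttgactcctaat
The Igfbp2 window holds an E-box that begins 142 bases before the start and no AP-1 match. Igfbp2 has 2 listed promoters, and its AP-1 match lies in the one not shown. The Cxcl10 window holds an AP-1 match at 74 bases before the start, and the Il6 window holds one at 249 bases. Both windows hold an AP-1 match, while Cxcl10 was detected in all 15 libraries and Il6 in 2.

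Levels are given as normalized counts, obtained by inverting the variance-stabilised log2 values that the authors deposited, and "at 0" means at the lowest value of the table. A gene was tested when it lay at least 1 (log2) above that value in at least 3 libraries, or 22.5 normalized counts, which 11568 genes did. Differences are log2 differences of the deposited values with the standard error (SE) of limma, a linear model fitted over all 15 libraries and all 11568 genes. A gene is called at a Benjamini-Hochberg adjusted p under 0.05. The deposited scale shrinks the differences of weakly expressed genes.

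Estimated depth was 9.32 M to 18.7 M assigned reads per library, and albumin and the other hepatocyte markers were abundant in every library. The library labelled DEN/HFD saline 4 stood apart. With it held out, 459 genes differed between DEN/HFD and chow, and this library lay nearer the chow mean for 362 of them (78.9%), whereas the other 6 DEN/HFD libraries did so for 4.44% to 26.7% of the genes called without each of them. Whether the label of this library is right was not tested, and a wrong label would change the values of every comparison that holds it. Diet calls of the list are therefore given with and without it, and estimates without it are printed for some genes only. The library was singled out on the same diet values, so leaving it out favours more diet calls. Calls gained that way are not separate support. The labels carry 2 RNA integrity numbers (RIN) per sample that do not match. The first averaged 9.23 in chow saline, 9.96 in chow MCOPPB, 8.85 in DEN/HFD saline and 9.00 in DEN/HFD MCOPPB, so it is lower in both DEN/HFD groups. Its range was 9.9 to 10 in chow MCOPPB, above every other library. It was 9 to 9.7 in chow saline, 8.4 to 9.2 in DEN/HFD saline and 8.7 to 9.2 in DEN/HFD MCOPPB. The first entry thus also separated MCOPPB from saline on chow. The second averaged 9.00 in chow saline, 9.28 in chow MCOPPB, 9.00 in DEN/HFD saline and 9.43 in DEN/HFD MCOPPB. With the first as a covariate, no member of the list was called in any comparison, and 0 of the 11568 genes were called between diets over both treatments. The part of RNA quality in the diet results, and in the results of MCOPPB on chow, was not tested beyond this.

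Levels of the 40 genes spanned more than 3 orders of magnitude. Per kilobase of exon, Igfbp2, an insulin-like growth factor (IGF) binding protein secreted by hepatocytes, was first with a mean of 1298 normalized counts per kb. Vegfa, the vascular endothelial growth factor, followed at 227, the TNF receptor Tnfrsf1a at 215 and the chemokine Cxcl12 at 202. A wide gap separated these 4 from Igfbp3 (43.8), Tnfrsf1b (43.3), Trp53 (36.2), Glb1 (33.8), Ccl5 (31.7) and Icam1 (28.0). At the other end, Csf2 was at 0, Il6 at 0.187, Mmp3 at 0.194 and Areg at 0.231 per kb, while the cytokine gene Il1a (9.13) and the protease gene Plau (11.8) lay in the middle of the order. Neighbours in this order often differed by less than the spread between libraries: Vegfa ranged from 335 to 2497 normalized counts and Tnfrsf1a from 447 to 710.

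**Figure D1:**
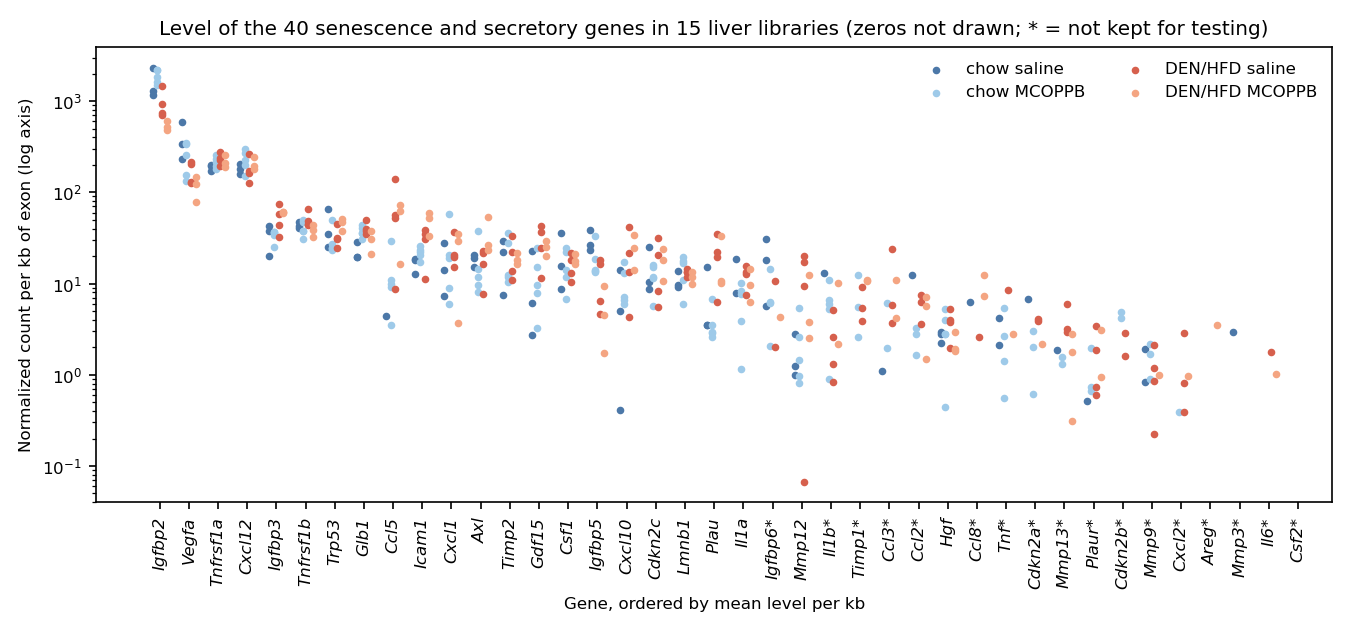
Level of each of the 40 genes in 15 liver libraries, as normalized counts per kilobase of exon on a log axis, with genes ordered by their mean and points coloured by group; libraries at 0 are not drawn and an asterisk marks genes too low to test. The means of Igfbp2, Vegfa, Tnfrsf1a and Cxcl12 stand above those of the other 36 genes, while single libraries overlap.

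Of the 17 genes that could not be tested, 16 were detected in at least 1 library. Csf2, the cytokine GM-CSF, was at 0 in all 15. Il6, which signals acute inflammation, was above 0 in 2 libraries (highest 4.31 normalized counts), Mmp3 in 1 (5.23) and the epidermal growth factor receptor ligand Areg in 1 (4.21). Tnf reached 14 and was detected in 8 libraries, and Il1b reached 24.9 and was detected in 12. The monocyte and neutrophil attractants Ccl2, Ccl3, Ccl8 and Cxcl2 reached 14.2, 18.5, 6.40 and 5.97. The matrix proteases Mmp9 and Mmp13 reached 7.65 and 16.0, the protease inhibitor Timp1 11.1, the urokinase receptor Plaur 9.01 and Igfbp6 34.3. A fit without the filter on low values called none of the 16 detected genes in any comparison, and Csf2 could not be fitted. The smallest p of these 16 genes in that fit was that of Igfbp6, with a log2 difference of -0.46 between DEN/HFD and chow over both treatments (limma adjusted p = 0.233).

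Cdkn2a, which encodes p16 and p19ARF and is the most used senescence marker, was close to the detection limit. Its normalized counts were 0, 0 and 8.02 in chow saline, 0.719, 2.35, 3.56, 0 and 0 in chow MCOPPB, 0, 4.8, 4.57 and 0 in DEN/HFD saline, and 0, 2.55 and 0 in DEN/HFD MCOPPB. Every group held libraries at 0, and the highest value was in a saline-treated chow mouse. The gene (ENSMUSG00000044303.6) lies on the minus strand of chromosome 4, from 89274471 to 89294653, and 1 row of the table covers both products. Its neighbour Cdkn2b, which encodes p15, was above 0 in 2 chow MCOPPB libraries (5.76 and 6.76) and in 2 DEN/HFD saline libraries (3.98 and 2.25). A fall of either gene with MCOPPB was not detectable at this depth.

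The other arrest and structure markers were measurable and none was called. Cdkn2c, which encodes p18, stood at 23.3, 67.4 and 27.9 in chow saline, 15.4, 31.4, 31.0, 40.4 and 42.6 in chow MCOPPB, 83.8, 55.2, 22.4 and 15 in DEN/HFD saline, and 28.5, 48.6 and 63.7 in DEN/HFD MCOPPB. Trp53, the gene of p53, stood at 102, 267 and 140 in chow saline, 94.8, 98.0, 109, 201 and 98.6 in chow MCOPPB, 183, 124, 128 and 99.0 in DEN/HFD saline, and 152, 205 and 192 in DEN/HFD MCOPPB. Lmnb1, the lamin whose loss marks senescence, stood at 27.2, 28.9 and 41.0, then 50.1, 57.5, 32.4, 17.9 and 52.4, then 39.9, 42.7, 39.4 and 34.8, and finally 39.8, 34.5 and 29.3 in the same order of groups. All groups overlapped for these 3 genes. The log2 differences with MCOPPB were -0.10 ± 0.23 (SE) on chow and 0.10 ± 0.24 under DEN/HFD for Cdkn2c, -0.30 ± 0.22 and 0.32 ± 0.23 for Trp53, and 0.13 ± 0.17 and -0.08 ± 0.17 for Lmnb1.

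Glb1 encodes the lysosomal beta-galactosidase behind the usual senescence stain. It stood at 84.9, 59.2 and 58.7 normalized counts in chow saline, 109, 122, 107, 91.6 and 132 in chow MCOPPB, 105, 115, 150 and 120 in DEN/HFD saline, and 63.2, 112 and 93.4 in DEN/HFD MCOPPB. The 3 chow saline mice were thus below all chow MCOPPB and all DEN/HFD saline mice, while DEN/HFD MCOPPB overlapped with every other group. The log2 difference with MCOPPB was 0.42 ± 0.15 on chow (limma adjusted p = 0.402) and -0.28 ± 0.16 under DEN/HFD. The difference between these 2 effects was -0.70 ± 0.22 (limma adjusted p = 0.592), the smallest p of the list in that comparison, and did not pass the threshold. Summed macrophage markers (12 genes) ranged from 1243 to 1564 normalized counts in chow saline and 2329 to 4085 in chow MCOPPB. In DEN/HFD saline they ranged from 2227 to 4753 and in DEN/HFD MCOPPB from 2646 to 5092, with none of the 12 at 0 in a group. They were thus higher with MCOPPB on chow, as Glb1 was. Under DEN/HFD, 9 of the 12 had positive and 3 negative differences with MCOPPB (median 0.26), while that of Glb1 was negative. The part of macrophages in the Glb1 values was not tested.

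The first comparison asked what MCOPPB changed in livers of chow mice. None of the 23 testable genes was called (0 of 23, where 0.32% of all tested genes were). At an unadjusted p under 0.05 there was 1, Glb1, against 9.06% of all genes. Glb1 was also the only gene of the list whose groups did not overlap, against 4.77% of all genes. Of the 23 genes, 14 had positive and 9 negative differences, with a median of 0.03 beside 0.00 over all genes. The smallest p values after Glb1 belonged to Ccl5 (0.55 ± 0.29), Vegfa (-0.60 ± 0.33), Igfbp5 (-0.47 ± 0.26) and Trp53. Of the 12 macrophage markers, 12 had positive differences with MCOPPB (median 0.59) and 0 were called. At an unadjusted p under 0.05, 8 of them were higher, where 9.06% of all genes passed in either direction. In bulk tissue, fewer cells of a type and less RNA per cell cannot be told apart.

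The second comparison asked the same in DEN/HFD mice. Again 0 of 23 genes were called, against 0.0259% of all genes. Igfbp2 (-0.72 ± 0.26, adjusted p = 0.853), Icam1 (0.55 ± 0.22, adjusted p = 0.923) and Axl (0.63 ± 0.28, adjusted p = 1.00) had an unadjusted p under 0.05, 3 of 23 against 4.74% of all genes. Axl, a receptor tyrosine kinase of macrophages and stellate cells, stood at 109, 114, 82.4 and 38.5 with saline and 271, 116 and 134 with MCOPPB. All 3 treated mice were above all saline mice for Axl and below them for Igfbp2, which made 2 genes of the list without overlap, against 6.96% of all genes. Without DEN/HFD saline 4 these differences were -0.51 for Igfbp2, 0.32 for Icam1 and 0.45 for Axl, none with an unadjusted p under 0.05. Mmp12 moved the other way, from -0.28 to -0.76, and was then the only gene of the list with an unadjusted p under 0.05 (adjusted p = 1.00). Without that library no tested gene was called (0%). Of the 23 differences 8 were positive and 15 negative, with a median of -0.08.

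Over both diets together, MCOPPB left 0 of 23 genes called, beside 0.372% of all genes, and 3 of 23 had an unadjusted p under 0.05, beside 6.5%. The smallest p values belonged to Igfbp5 (-0.48 ± 0.18, adjusted p = 0.544), to Icam1 (0.38 ± 0.15, adjusted p = 0.616), the adhesion molecule that leukocytes bind, and to Vegfa (-0.53 ± 0.23, adjusted p = 0.698). Cxcl12, made by stromal and endothelial cells, followed at 0.25 ± 0.17 and the TNF receptor Tnfrsf1b at -0.17 ± 0.11. Cxcl12 stood at 1671, 1287 and 1476 in chow saline, 2466, 1838, 2207, 1245 and 1643 in chow MCOPPB, 1039, 1403, 1341 and 2149 in DEN/HFD saline, and 1973, 1579 and 1460 in DEN/HFD MCOPPB, with overlap everywhere. Tnfrsf1b stood at 161, 179 and 156, then 145, 144, 181, 117 and 191, then 250, 170, 166 and 184, and finally 123, 147 and 169 in the same order, also with overlap. No gene of the list was called for the difference between the MCOPPB effects in the 2 diets, against 0.0692% of all genes, and 2 of 23 (Glb1 and Igfbp2) had an unadjusted p under 0.05, against 5.9%. A p above the threshold does not show that MCOPPB left these genes alike: with 3 to 5 mice a group, the SE of the within-diet effects was 0.15 to 0.39.

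**Figure D2:**
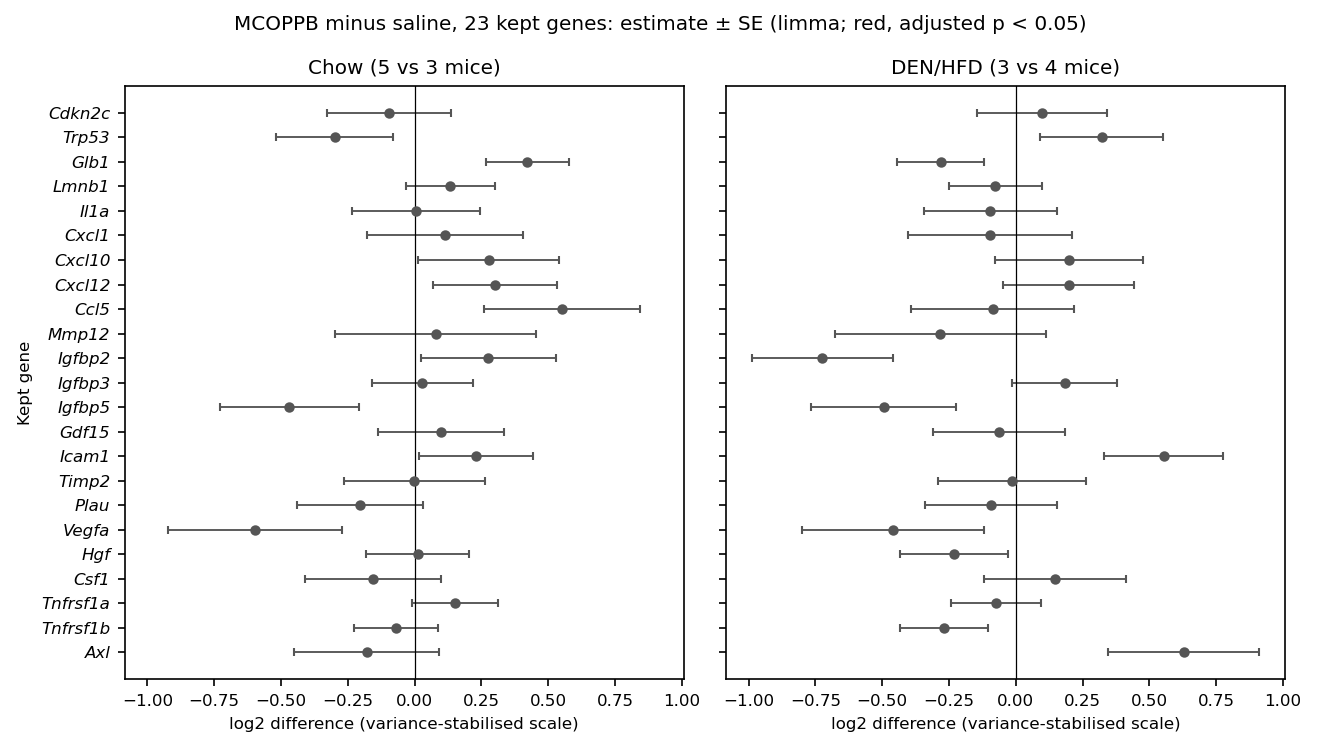
Log2 differences of MCOPPB minus saline, on the deposited variance-stabilised scale, for the 23 testable genes on chow (left, 5 against 3 mice) and under DEN/HFD (right, 3 against 4 mice); points are limma estimates and bars their SE. No gene is called, and estimates lie between -0.60 and 0.55 on chow and between -0.72 and 0.63 under DEN/HFD.

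The larger differences of the list lay between DEN/HFD and chow. Over both treatments, 4 of 23 genes were called (1.32% of all tested genes were): the chemokine gene Ccl5 rose, and Igfbp2, Igfbp5 and Vegfa fell. Without the library labelled DEN/HFD saline 4 there were 8 of 23 (against 3.98% of all genes), as Icam1, Igfbp3, Plau and Mmp12 were added in the higher direction. A rise in calls was favoured in advance, because that library was singled out for lying on the chow side. Of the 23 differences, 19 were positive, with a median of 0.13 beside 0.00 over all genes. On chow, Ccl5, Plau and Mmp12 reached the 22.5 normalized counts of the filter only in their highest library (27.8, 35.5 and 39.3). They became testable through the DEN/HFD libraries, where they were high, so their calls and these counts partly reflect the filter. The comparisons within saline mice, within MCOPPB mice and over both treatments share libraries, and each comparison between diets also shares its groups with the MCOPPB comparisons above.

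Igfbp2 showed the clearest difference. It stood at 2133, 4284 and 2360 normalized counts in chow saline and 4032, 2980, 3378, 4017 and 2754 in chow MCOPPB. In DEN/HFD saline it stood at 1358, 1698, 1291 and 2699, and in DEN/HFD MCOPPB at 954, 1126 and 893. All DEN/HFD mice except the library labelled DEN/HFD saline 4 lay below the lowest chow mouse. The log2 difference was -1.22 ± 0.21 over both treatments (limma adjusted p = 0.0162). Within MCOPPB mice it was -1.70 ± 0.25 (adjusted p = 0.00280), the only call of the list in that comparison, where 0.571% of all genes were called. Within saline mice it was -0.70 ± 0.26 (adjusted p = 0.327). The difference between these 2 diet effects, which is also the difference of the MCOPPB effects, was -1.0 ± 0.37 (adjusted p = 0.741). With the first RIN entry as a covariate the difference was -0.64 over both treatments (adjusted p = 0.538) and -1.19 within MCOPPB mice (adjusted p = 0.316). Leaving out DEN/HFD MCOPPB 3 gave an adjusted p of 0.0701 over both treatments.

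Igfbp5, the IGF binding protein of mesenchymal cells, fell as well. Its counts were 139, 159 and 234 in chow saline, 82.2, 110, 198, 80.2 and 84.4 in chow MCOPPB, 108, 38.6, 28.1 and 97.2 in DEN/HFD saline, and 57.0, 27.2 and 10.5 in DEN/HFD MCOPPB. The chow groups and the DEN/HFD groups did not overlap within saline mice or within MCOPPB mice. The log2 difference over both treatments was -0.92 ± 0.18 (adjusted p = 0.0225). The call was lost with the first RIN entry (adjusted p = 0.482), without the filter on low values (0.0532), without DEN/HFD MCOPPB 2 (0.0646) and without DEN/HFD MCOPPB 3 (0.0806). Igfbp2 and Igfbp5 are neighbours on chromosome 1, on opposite strands, from 72824503 to 72852474 and from 72857932 to 72874884 (GRCm38).

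Igfbp3, the main IGF carrier of blood and made by non-parenchymal liver cells, had the opposite sign. It stood at 62.3, 119 and 132 in chow saline, 77.7, 114, 115, 112 and 107 in chow MCOPPB, 232, 183, 137 and 101 in DEN/HFD saline, and 184, 191 and 190 in DEN/HFD MCOPPB. All MCOPPB-treated DEN/HFD mice were above all MCOPPB-treated chow mice. The log2 difference over both treatments was 0.49 ± 0.13 (adjusted p = 0.0751), and without DEN/HFD saline 4 it was 0.56 (adjusted p = 0.0209).

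Vegfa is the growth factor by which hepatocytes and other cells sustain blood vessels. It stood at 998, 2497 and 1440 in chow saline, 1464, 571, 665, 1492 and 1090.5 in chow MCOPPB, 553, 866, 536 and 919 in DEN/HFD saline, and 636, 527 and 335 in DEN/HFD MCOPPB. All 4 DEN/HFD saline mice lay below the 3 chow saline mice, while the MCOPPB groups overlapped. The log2 difference over both treatments was -0.98 ± 0.23 (adjusted p = 0.0438). This call sat at the threshold: it held when the library left out was chow saline 1, chow MCOPPB 2, chow MCOPPB 3, DEN/HFD saline 4 or DEN/HFD MCOPPB 1, and was lost for each of the other 10 (adjusted p up to 0.141). It was also lost with either RIN entry as a covariate, at 0.573 and 0.0659, and without the filter on low values (0.0799). The other growth factors of the list, Hgf and the macrophage growth factor Csf1, differed by 0.02 ± 0.14 and 0.03 ± 0.18.

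**Figure D3:**
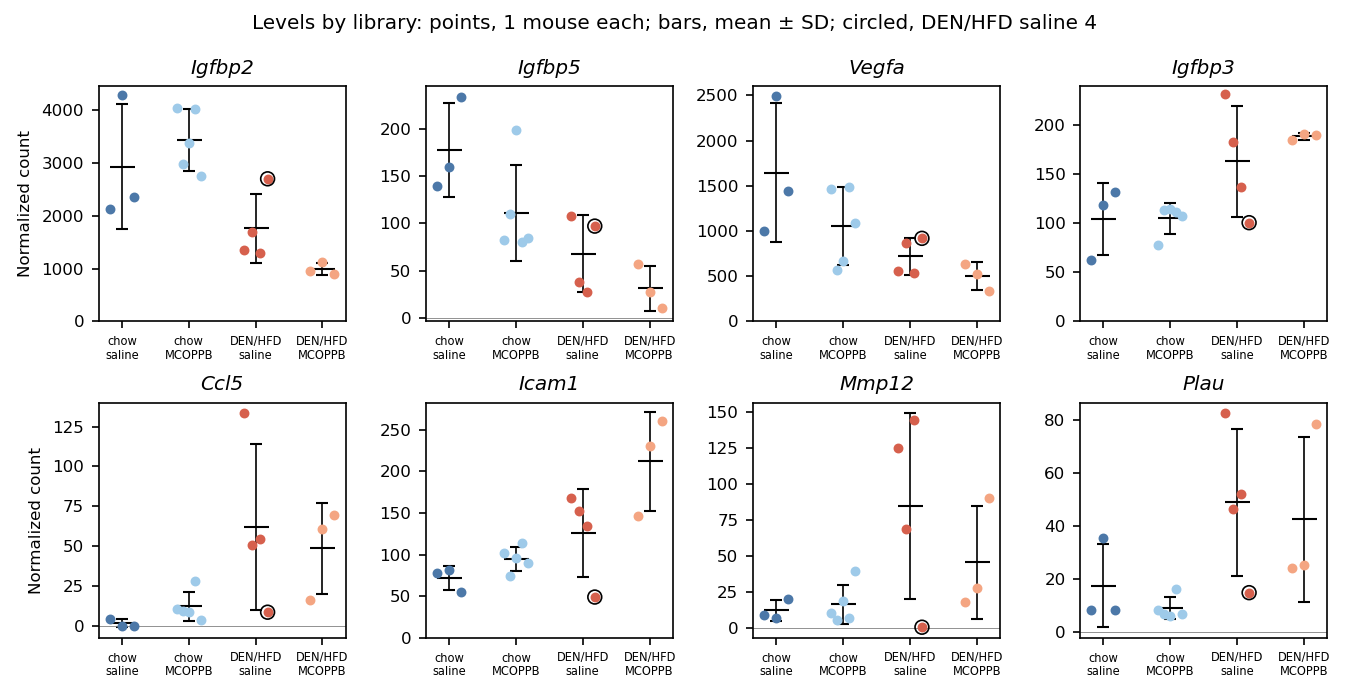
Normalized counts of 8 genes of the list in each mouse, by group; points are single mice, bars the mean and SD, and the circle marks DEN/HFD saline 4. Igfbp2, Igfbp5 and Vegfa lie lower and Igfbp3, Ccl5, Icam1, Mmp12 and Plau higher in most DEN/HFD mice, and the circled mouse lies on the chow side for most of these genes.

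Ccl5, a chemokine of T cells, NK cells and macrophages, rose from near 0. It stood at 4.22, 0 and 0 in chow saline, 10.6, 9.38, 8.81, 27.8 and 3.40 in chow MCOPPB, 133, 50.8, 54.1 and 8.40 in DEN/HFD saline, and 15.9, 60.3 and 69.5 in DEN/HFD MCOPPB. All DEN/HFD saline mice were above all chow saline mice, and the lowest of them was DEN/HFD saline 4. The log2 difference over both treatments was 0.98 ± 0.22 (adjusted p = 0.0326) on the deposited scale, which shrinks it, and 3.24 ± 0.70 as log2 of the normalized count plus 1. The call held when the library left out was chow saline 1, chow MCOPPB 2, chow MCOPPB 4, DEN/HFD saline 4 or DEN/HFD MCOPPB 1, and was lost for each of the other 10 (adjusted p up to 0.0989). It was also lost with the first RIN entry (0.454), with the second (0.0594) and without the filter on low values (0.0726). Within saline mice the difference was 1.32 ± 0.30 (adjusted p = 0.166), a comparison in which 0 of 23 genes and 0.0519% of all genes were called, and without DEN/HFD saline 4 it was 1.60 (adjusted p = 0.0199).

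Markers of cells that make Ccl5 are given beside it. Summed T and NK cell markers (12 genes, with Ncr1 at 0 throughout) ranged from 27.2 to 108 normalized counts in chow saline, 34.3 to 75.1 in chow MCOPPB, 61.9 to 167 in DEN/HFD saline and 37.4 to 104 in DEN/HFD MCOPPB. These ranges overlapped, and of the 3 testable T and NK genes 2 had positive differences over both treatments and 0 were called. The other 1 was lower at an unadjusted p under 0.05. Markers of recruited monocytes and lipid-associated macrophages (10 genes, with Chil3 at 0 in chow saline) ranged from 319 to 699, 391 to 717, 388 to 1392 and 740 to 1149 in the same order. All 6 testable genes of that list had positive differences over both treatments (median 0.64) and 0 were called. At an unadjusted p under 0.05, 4 were higher, where 16.7% of all genes passed in either direction. Of the 12 macrophage genes, 9 had positive and 3 negative differences over both treatments (median 0.41), with 6 higher and 2 lower at an unadjusted p under 0.05. In that list, Cd68 (0.80 ± 0.17, adjusted p = 0.0296) and C1qc (0.67 ± 0.16, adjusted p = 0.0441) were called, where 1.32% of all genes were. Of the 13 stellate cell genes, 9 had positive and 4 negative differences, and Col1a2 was called (1.06 ± 0.24, adjusted p = 0.0370). The part of these cells in the values of Ccl5, Icam1, Mmp12, Plau and Igfbp3 was not tested.

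Icam1 and Plau missed the threshold over both treatments and passed it without DEN/HFD saline 4. Icam1 stood at 78.5, 81.9 and 55.1 in chow saline, 102, 74.5, 95.6, 114 and 90.3 in chow MCOPPB, 168, 152, 134 and 49.1 in DEN/HFD saline, and 146, 230 and 261 in DEN/HFD MCOPPB. The only DEN/HFD mouse within the chow range or below it was DEN/HFD saline 4. The difference was 0.60 ± 0.15 (adjusted p = 0.0631), and 0.71 without that library (adjusted p = 0.00362). Plau, the urokinase protease that activates plasminogen, stood at 8.38, 35.5 and 8.37 in chow saline, 8.23, 6.90, 6.13, 16.1 and 6.77 in chow MCOPPB, 82.4, 46.5, 51.8 and 14.8 in DEN/HFD saline, and 23.9, 25.2 and 78.3 in DEN/HFD MCOPPB. Its difference was 0.62 ± 0.17 (adjusted p = 0.0746), and 0.70 without DEN/HFD saline 4 (adjusted p = 0.0178).

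Mmp12, the macrophage elastase, showed the widest spread. It stood at 8.96, 7.19 and 20.3 in chow saline, 10.5, 5.85, 18.9, 7.07 and 39.3 in chow MCOPPB, 125, 68.7, 144 and 0.486 in DEN/HFD saline, and 18.3, 27.6 and 90.8 in DEN/HFD MCOPPB. The lowest value of all 15 mice was that of DEN/HFD saline 4. The difference over both treatments was 0.68 ± 0.27 (adjusted p = 0.201), and 0.88 without that library (adjusted p = 0.0223). Gdf15, a stress-induced cytokine, differed by 0.53 ± 0.17 (adjusted p = 0.121) and the interferon-induced chemokine Cxcl10 by 0.56 ± 0.19 (adjusted p = 0.133). At an unadjusted p under 0.05 there were 10 of 23 genes (7 higher, 3 lower), against 16.7% of all genes.

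Within single treatments, the counts were as follows. In saline mice, 9 of 23 genes had an unadjusted p under 0.05 against 11% of all genes, and without DEN/HFD saline 4 Mmp12 was called beside Ccl5 (1.35, adjusted p = 0.0392; 0.451% of all genes were called). In MCOPPB mice, 8 of 23 genes did so against 12.3%, with the smallest p for Igfbp2, Igfbp5 (-0.93 ± 0.26), Icam1 (0.75 ± 0.21), Igfbp3 (0.57 ± 0.19) and Plau (0.67 ± 0.24), and without DEN/HFD saline 4 Icam1 was called beside Igfbp2 (adjusted p = 0.0370; 1.36% of all genes were called). Groups did not overlap for 4 genes in saline mice (Glb1, Ccl5, Igfbp5 and Vegfa), against 9.09% of all genes, and for 5 in MCOPPB mice (Igfbp2, Igfbp3, Igfbp5, Icam1 and Plau), against 9.31%. Over both treatments no gene of the list separated all DEN/HFD from all chow mice, as 0.32% of all genes did. The remaining testable genes Il1a, Cxcl1, Timp2 and Tnfrsf1a differed by 0.27 ± 0.17, 0.11 ± 0.21, 0.03 ± 0.19 and 0.14 ± 0.12.

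**Figure D4:**
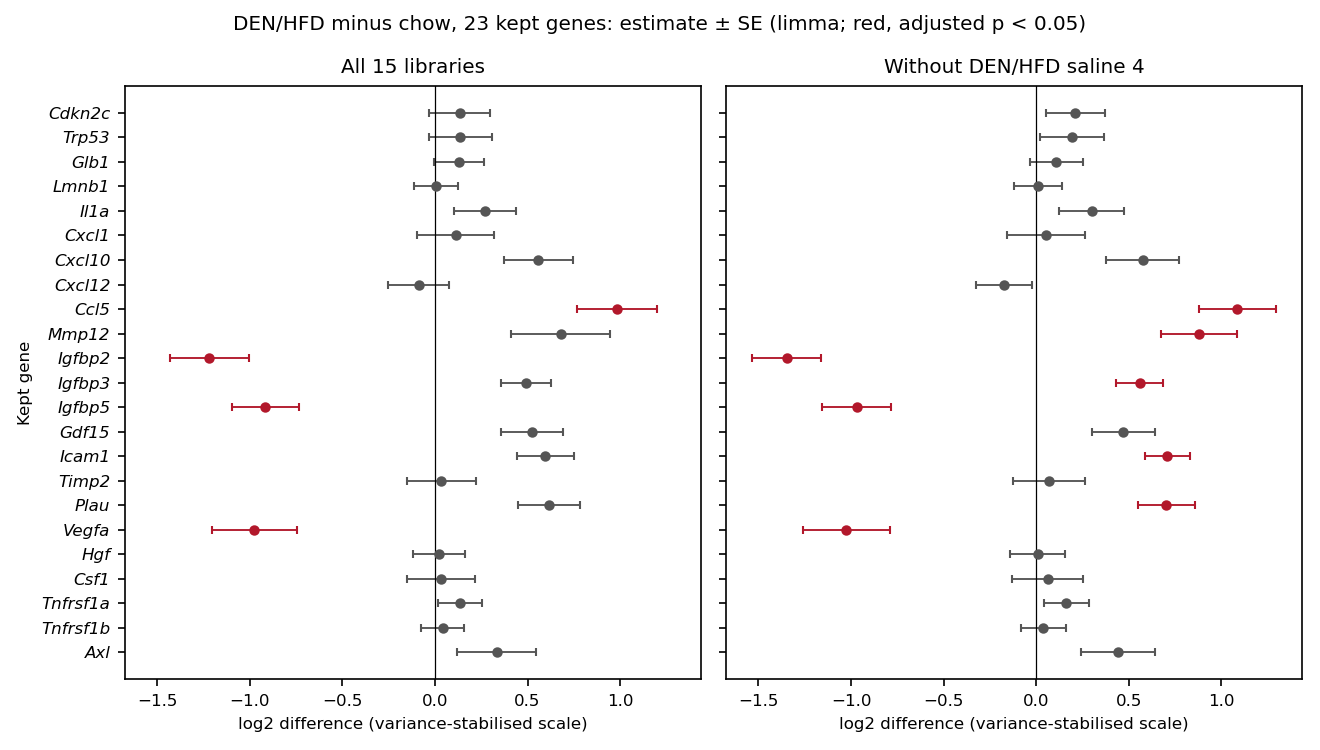
Log2 differences of DEN/HFD minus chow over both treatments, on the deposited variance-stabilised scale, for the 23 testable genes with all 15 libraries (left) and without DEN/HFD saline 4 (right); points are limma estimates, bars their SE, and red marks genes called at an adjusted p under 0.05. There are 4 called genes on the left and 8 on the right.

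Other genes of these pathways were read from lists of cell cycle, lamina, lysosome, receptor, ligand, NF-kB and other SASP genes. No gene of these lists was called for MCOPPB in either diet. Among receptors, the epidermal growth factor receptor Egfr had the smallest p over both diets, with a difference of -1.24 ± 0.29 (adjusted p = 0.0828). Over both treatments, DEN/HFD raised 1 of 17 cell cycle genes, 0 of 13 lamina and chromatin genes, 0 of 14 lysosomal genes, 0 of 16 receptors, 0 of 9 ligands and inhibitors, 2 of 20 NF-kB and C/EBP genes and 2 of 36 other SASP genes, and lowered none of them, where 1.32% of all genes were called. At an unadjusted p under 0.05, other SASP genes were 8 higher and 6 lower, and receptors 3 higher and 3 lower.

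The cell cycle gene was Cdkn1a, which encodes the p53-induced inhibitor p21. It averaged 24.3 ± 16.6 normalized counts (SD, n = 3) in chow saline, 10.4 ± 6.10 (n = 5) in chow MCOPPB, 46.6 ± 29.2 (n = 4) in DEN/HFD saline and 126 ± 64.3 (n = 3) in DEN/HFD MCOPPB. Its diet difference was 0.96 ± 0.23 over both treatments (adjusted p = 0.0491) and 1.53 ± 0.27 within MCOPPB mice (adjusted p = 0.0152). Cebpb, the gene of C/EBP beta, differed by 1.22 ± 0.26 (adjusted p = 0.0266) and Nfkb2, a subunit of NF-kB, by 0.59 ± 0.13 (adjusted p = 0.0309). The T cell chemokine Cxcl9 averaged 97.2 normalized counts over the 8 chow mice and 312 over the 7 DEN/HFD mice (1.17 ± 0.26, adjusted p = 0.0309), and Cxcl14 8.76 and 33.0 (0.58 ± 0.14, adjusted p = 0.0484). The hepatocyte hormone Fgf21 was called within MCOPPB mice (1.05 ± 0.21, adjusted p = 0.0258). Each of these calls was lost with the first RIN entry as a covariate (adjusted p from 0.273 to 0.562) and on leaving out DEN/HFD MCOPPB 2 or DEN/HFD MCOPPB 3. Leaving out other libraries also ended most of them. The 2 calls lost most often, Cdkn1a over both treatments and Cxcl14, were lost for 13 of 15 libraries left out. Without the filter on low values, all of these calls but that of Cdkn1a within MCOPPB mice were lost. Mean levels of Cxcl14 on chow and of Cdkn1a in chow MCOPPB lay below the 22.5 normalized counts of the filter. Calls of these genes may thus partly reflect the filter, which was not tested further.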

How the data were processed

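RNA of 15 mouse livers was sequenced from directional libraries, and groups were taken from the sample titles. Trimmomatic, STAR 2.7.0e, HTSeq, DESeq2 and the GRCm38 (mm10) genome are named in the submitters' processing notes. Their roles and settings, strand included, are not given in the sources used here. The authors deposited variance-stabilised log2 values for 54281 Ensembl genes, and the value 5.49, shared by all libraries, stands for 0 reads. From these, normalized counts were computed by inverting the transformation. Only 15.1% to 45.1% of low values came out as whole reads (within 0.01 read, below 20 reads), so no count test was run and depth is an estimate. Gene names, positions and exon lengths came from GENCODE M21, where 54107 IDs matched.

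Genes that exceeded the lowest value by 1 (log2) or more in 3 or more libraries were tested with limma 3.58.1 in R 4.3.3: 4 group means, or diet plus treatment for effects over both, and eBayes with a trend, with 11 residual degrees of freedom for the group means. P-values are two-sided and adjusted over 11568 genes, and they weigh each difference against the spread between these animals. The script was tested on simulated data with known changes. Replicate numbers were not shown to pair the animals: of 19 same-numbered pairs, 5 had residual correlations above 0.1. The mean correlation was -0.027 for these pairs and 0.0084 for other pairs of different groups, which cannot exclude pairing.

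Values are given for the 6 arrest, lysosome and lamina markers, for called genes, and for the 5 smallest p values in each comparison. Mmp12, Gdf15, Cxcl10 and the remaining testable genes were added after their values were seen. The genes and lists were chosen with earlier results of these data known. Alternatives were 2 other filters, 2 normalizations, another scale, fits of only the groups compared, either RIN entry, a replicate block, 2 variance models and leaving out each library.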

Additional observations from a re-analysis of the deposited data

Results flagged for a closer look

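Within groups of 4 or 5 mice, 3 values lay far from the rest of their group, out of 46 combinations of gene and group examined, where chance gives about 1 in 20. Trp53 stood at 201 normalized counts in chow MCOPPB 4, beside 94.8 to 109 in the other 4 mice of that group. Plau stood at 16.1 in the same mouse, beside 6.13 to 8.23 in the others. Igfbp3 was low in chow MCOPPB 1, at 77.7 beside 107 to 115. None of the 3 values belonged to DEN/HFD saline 4.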

How the results depend on the processing

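No gene of the list was called for any MCOPPB comparison, or for the difference of the MCOPPB effects, under any alternative run. The number called between DEN/HFD and chow over both treatments (4) was 1 without a filter, 0 with the first RIN entry as a covariate, 2 with the second, 1 with the replicate block, 7 with array weights, and 0 to 8 on leaving out 1 library. It was 0 without DEN/HFD MCOPPB 3 and 8 without DEN/HFD saline 4. Within MCOPPB mice the number (1) was 0 with the first RIN entry, 3 with array weights, and 1 to 2 on leaving out 1 library. Within saline mice (0) it was 0 to 2 on leaving out 1 library. The cause of these changes was not tested.

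Of all tested genes, those called over both treatments (153) were 56 without a filter, 0 and 81 with the first and second RIN entry, 69 with the replicate block, 392 with array weights and 6 to 459 on leaving out 1 library. Within MCOPPB mice (66) they were 135 when only the compared groups were fitted, 0, 34, 16 and 285 under the RIN entries, block and weights, and 18 to 157 on leaving out 1. Within saline mice (6) they were 1 with the first RIN entry, 3 with array weights, and 1 to 52. For MCOPPB on chow (37) they were 15 with the first RIN entry, 23 with the block and 16 to 51. For MCOPPB under DEN/HFD (3) they ranged from 0 to 8, and for the difference of effects (8) from 2 to 12. For MCOPPB over both diets (43) they were 3 with the first RIN entry, 8 with the second, and at most 43.

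Signs turned for Cdkn2c and Trp53, whose differences were near 0, and for no other gene and comparison recomputed. For MCOPPB under DEN/HFD, Cdkn2c was -0.014 with the first RIN entry, -0.10 with the second, and -0.059 to 0.28 on leaving out 1 library. For MCOPPB on chow, Cdkn2c was -0.22 to 0.11 on leaving out 1. For DEN/HFD in saline mice, Cdkn2c was -0.15 to 0.23 on leaving out 1, and Trp53 was 0.0080 with the first RIN entry and -0.39 to 0.083 on leaving out 1. Samples with the same replicate number were not shown to be paired. With the replicate block, Igfbp2 remained called in both comparisons (adjusted p = 0.0128 and 0.0182) and Cebpb over both treatments, while Igfbp5 (0.0592), Vegfa (0.0735), Ccl5 (0.0931) and the calls of Cdkn1a, Nfkb2, Cxcl9, Cxcl14 and Fgf21 were lost. The 17 low genes, Cdkn2a, Cdkn2b and Il6 among them, were not tested in the filtered fit.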
